A study of Mus musculus with 18 samples.

Results

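The 34 genes described here encode enzymes, carriers and transporters of fatty acid oxidation in the mouse liver. They were given as a list of symbols and found by symbol among the 15572 genes of the transcript count table, and all 34 passed the filter on low counts that left 14151 genes to test. Background knowledge placed 16 of them in the mitochondrion and 10 in the peroxisome. A further 8 activate fatty acids or work in more than 1 compartment and were kept apart.

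RNA-seq was made from livers of refed wild-type mice (WT) and of refed mice with a liver-specific deletion of Jmjd1c (JMJD1C-LKO), with 2 libraries of pooled RNA for each genotype. ATAC-seq, in which a transposase marks open chromatin, came from single livers, 2 from fasted and 2 from refed WT mice and 2 from refed JMJD1C-LKO mice. ChIP-seq for dimethylated lysine 9 of histone H3 (H3K9me2), a mark that JMJD1C is reported to remove, came from 2 WT fasted and 2 WT refed livers, each with its own input. All mice were of the C57BL/6J strain, were kept on chow and were fasted overnight, and the refed ones were then given a high-carbohydrate diet for 6 h by the labels and for 8 to 16 h by the methods. The methods give an age of 12 weeks, and the labels give 6 to 8 weeks on chow. In JMJD1C-LKO mice a floxed Jmjd1c allele was cut by Cre under the albumin promoter, which is active in hepatocytes, so the other cells of the liver keep the gene. WT mice were littermates. RNA-seq of fasted livers and H3K9me2 of JMJD1C-LKO livers were not analysed here. The fed state was taken from the sample titles, since all samples carry the same description of treatment.

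Long-chain fatty acids are activated to acyl-CoA esters and enter the mitochondrion as carnitine esters through Cpt1a, the outer membrane step that malonyl-CoA inhibits, and Cpt2. There each turn of the spiral uses an acyl-CoA dehydrogenase, a hydratase, a hydroxyacyl-CoA dehydrogenase and a thiolase, and electrons pass through Etfa, Etfb and Etfdh to the respiratory chain. Peroxisomes shorten very long and branched chains with their own enzymes, import them through transporters of the Abcd family and export the products as carnitine esters made by Crot. In liver the pathway is known for its rise in fasting, under the nuclear receptor Ppara, and for its restraint after a carbohydrate meal.

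The libraries held 51265128 to 54400509 counts, and in the test over all genes 2066 were higher and 1892 lower in JMJD1C-LKO, with a median log2 fold change of 0.01. Jmjd1c itself was at 22.0 and 22.8 counts per 1000000 of the library (CPM) in WT and at 20.0 and 20.5 CPM in the libraries labelled JMJD1C-LKO (log2 fold change -0.14, SE 0.08, edgeR adjusted p = 0.233). The counts cover whole transcripts and do not show single exons, so they neither bear out nor contradict the genotype labels, and every direction given for RNA rests on those labels. Of 7 hepatocyte markers none was lower and 2 were higher, with Alb at 71445 to 86053 CPM in the 4 libraries. All 6 Kupffer cell markers were higher in JMJD1C-LKO, and their summed level was 194 and 198 CPM in WT and 380 and 546 CPM in JMJD1C-LKO. Of 6 liver endothelial markers 5 were higher, with sums of 96.9 and 97.9 against 131 and 173 CPM. The part of these cells in the results below was not tested, and more cells of a type and more RNA per cell cannot be told apart in whole liver. H3K9me2 refed replicate 1 stood apart, with 1297 summits against 7690 to 13456 in the other 3 livers, and the ATAC-seq lists of JMJD1C-LKO held 1450 and 825 summits against 3119 to 7632 in WT.

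To show what the chromatin lists place at these genes, the 250 bases before the transcript start are printed 5′ to 3′ on the gene's strand (RefSeq, GRCm38.p6). Acadm (chr3:153944644-153944893, minus strand), Etfdh (chr3:79628768-79629017, minus strand) and Hadha (chr5:30154981-30155230, minus strand) are shown because an ATAC-seq summit lay at their starts in all 4 WT livers, and capitals mark the 5 bases on each side of each WT summit inside the stretch, with the summit base. Ehhadh (chr16:21787835-21788084, minus strand) and Cpt1a (chr19:3323051-3323300, plus strand) are shown because their transcripts changed most among abundant peroxisomal and mitochondrial genes, and no ATAC-seq summit lay in them.
Acadm: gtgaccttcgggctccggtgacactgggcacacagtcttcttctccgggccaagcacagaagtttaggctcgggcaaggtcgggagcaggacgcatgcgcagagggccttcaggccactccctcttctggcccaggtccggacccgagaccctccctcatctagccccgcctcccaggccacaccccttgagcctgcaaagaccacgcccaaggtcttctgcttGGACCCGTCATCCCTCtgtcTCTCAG
Etfdh: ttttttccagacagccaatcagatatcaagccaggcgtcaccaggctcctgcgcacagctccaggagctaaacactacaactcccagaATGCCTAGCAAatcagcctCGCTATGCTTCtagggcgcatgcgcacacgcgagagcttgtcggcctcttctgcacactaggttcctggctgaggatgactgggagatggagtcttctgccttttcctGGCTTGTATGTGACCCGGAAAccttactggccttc
Hadha: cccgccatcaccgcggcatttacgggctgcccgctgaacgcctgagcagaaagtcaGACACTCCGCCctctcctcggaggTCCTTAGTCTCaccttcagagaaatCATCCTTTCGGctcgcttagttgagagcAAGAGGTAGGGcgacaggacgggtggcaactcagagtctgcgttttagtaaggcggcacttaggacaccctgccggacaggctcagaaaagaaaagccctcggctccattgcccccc
Ehhadh: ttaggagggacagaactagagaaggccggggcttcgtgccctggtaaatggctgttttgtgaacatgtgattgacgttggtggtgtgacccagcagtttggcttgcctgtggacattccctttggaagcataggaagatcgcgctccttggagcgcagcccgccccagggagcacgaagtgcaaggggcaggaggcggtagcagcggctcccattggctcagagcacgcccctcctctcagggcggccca
Cpt1a: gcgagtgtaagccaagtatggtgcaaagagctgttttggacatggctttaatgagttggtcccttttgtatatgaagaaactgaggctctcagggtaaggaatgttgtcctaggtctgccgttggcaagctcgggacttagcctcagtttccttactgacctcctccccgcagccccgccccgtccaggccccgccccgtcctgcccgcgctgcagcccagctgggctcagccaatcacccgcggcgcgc

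In refed JMJD1C-LKO livers 5 of the 34 genes were higher and 4 were lower than in WT at an edgeR adjusted p under 0.05. The background was 14.6% of all tested genes called higher and 13.4% called lower, and the members' shares were 14.7% and 11.8%, so the set as a whole was called about as often as any other genes. The highest was Cpt1a and the lowest Abcd2, a peroxisomal transporter of very long chains. The other 25 genes did not pass, with standard errors of 0.08 to 0.11 on the log2 scale over all 34. In CPM the libraries of the 2 genotypes did not overlap for 22 genes, 12 higher and 10 lower in JMJD1C-LKO, and over all tested genes such a separation was found for 67.5%. The median log2 fold change was 0.01 over the 34 genes and 0.01 over all tested genes.

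**Figure D1:**
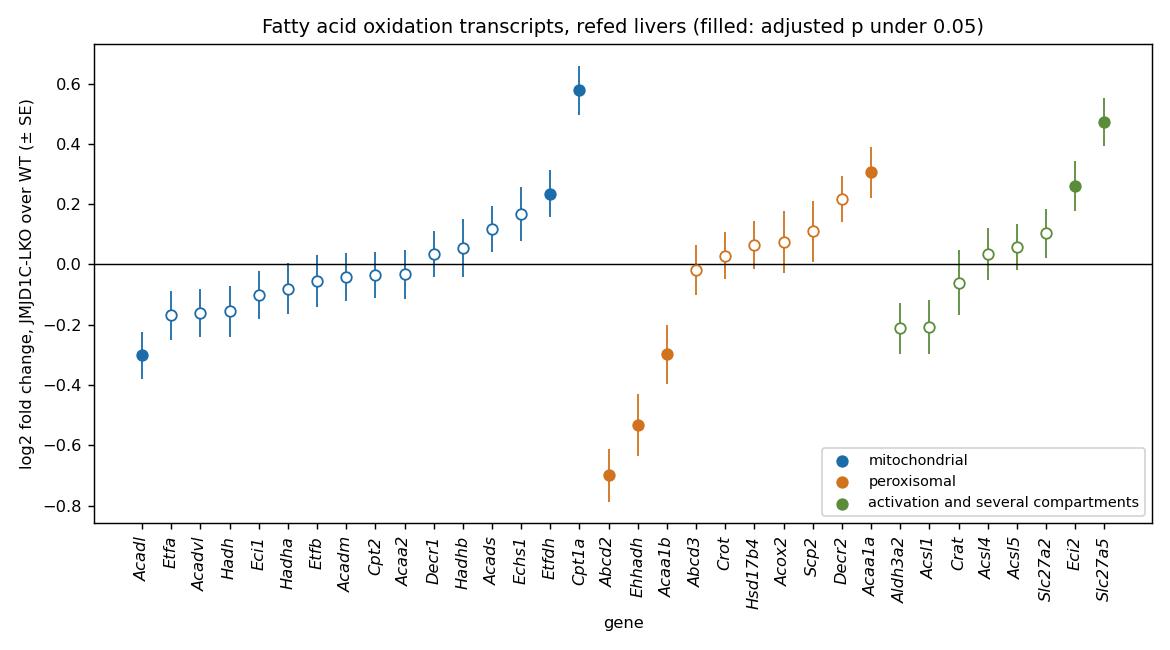
Log2 fold change of each gene in refed JMJD1C-LKO over refed WT liver (y axis, ± SE from edgeR, 2 libraries a genotype), genes on the x axis grouped by compartment and ordered by value; filled points have an adjusted p under 0.05. Cpt1a and Slc27a5 lie highest and Abcd2 and Ehhadh lowest, and most other points lie within 0.25 of 0.

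Of the 16 mitochondrial genes 2 were higher (12.5%) and 1 was lower (6.25%), beside 14.6% and 13.4% of all tested genes. Entry into the mitochondrion differed between its steps. Cpt1a (chromosome 19, 3323301 to 3385733) was at 366 and 355 CPM in WT and at 519 and 557 CPM in JMJD1C-LKO. Both JMJD1C-LKO libraries lay above both WT libraries, and the transcript was 1.49-fold higher (log2 fold change 0.58, SE 0.08, edgeR adjusted p = 0.00119). Cpt2, the inner membrane partner, was at 181 and 176 CPM in WT and at 177 and 172 CPM in JMJD1C-LKO, with overlapping libraries and a log2 fold change of -0.04 (SE 0.08, edgeR adjusted p = 0.764).

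Of the 4 acyl-CoA dehydrogenases 1 passed the test. Acadl, the long-chain enzyme (chromosome 1, 66830839 to 66863309), was at 358 and 343 CPM in WT and fell to 282 and 286 CPM (log2 fold change -0.30, SE 0.08, edgeR adjusted p = 0.0187). Its libraries did not overlap between genotypes, but the call was lost without WT replicate 1 (edgeR adjusted p = 0.180) or WT replicate 2 (0.118). Acadvl, which acts on very long chains, was at 645 and 640 CPM in WT and at 584 and 564 CPM in JMJD1C-LKO (adjusted p = 0.157 by edgeR). Acadm, the medium-chain enzyme, was at 512 and 484 CPM in WT and 484 and 483 CPM in JMJD1C-LKO, and Acads, the short-chain enzyme, was at 138 and 142 against 153 and 150 CPM. Neither of these passed, with log2 fold changes of -0.04 and 0.12.

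Of the 10 genes of the later steps 1 passed the test, Etfdh. Hadha and Hadhb, the subunits of the trifunctional protein, had log2 fold changes of -0.08 (SE 0.08) and 0.05 (SE 0.10) and overlapping libraries. For Hadh, Echs1, Eci1, Decr1 and Acaa2, which act on shorter chains or on double bonds, the log2 fold changes lay between -0.16 and 0.17 and none passed. Acaa2, the mitochondrial thiolase and the most abundant of the 16 transcripts, was at 1014 and 1046 CPM in WT and at 1027 and 986 CPM in JMJD1C-LKO. These values overlapped. The call moved for Hadh without JMJD1C-LKO replicate 1 (log2 fold change -0.24, edgeR adjusted p = 0.0449) and for Echs1 without JMJD1C-LKO replicate 2 (0.27, edgeR adjusted p = 0.0333), where each then passed. Of the electron carriers, Etfdh (chromosome 3, 79603788 to 79628767) was at 209 and 212 CPM in WT and rose to 252 and 243 CPM (log2 fold change 0.23, SE 0.08, edgeR adjusted p = 0.0479), while its upstream partners Etfa and Etfb had log2 fold changes of -0.17 and -0.06 and did not pass. Without JMJD1C-LKO replicate 1 Etfa passed (-0.24, edgeR adjusted p = 0.0374). The call for Etfdh sat just under the threshold and was lost without WT replicate 1 (edgeR adjusted p = 0.286), WT replicate 2 (0.244) or JMJD1C-LKO replicate 1 (0.0718), and with low-count genes kept. One of its exons overlaps an exon of Ppid on the other strand by 23 bp, and it is not stated whether counting used strand.

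Among the 10 peroxisomal genes 3 were lower and 1 was higher. Ehhadh, the bifunctional hydratase and dehydrogenase of the peroxisome (chromosome 16, 21761285 to 21787834), was at 946 and 946 CPM in WT and at 589 and 719 CPM in JMJD1C-LKO. The libraries did not overlap, and the transcript fell by 0.53 on the log2 scale (SE 0.10, edgeR adjusted p = 0.00516), with edgeR adjusted p = 0.0513 and 0.0599 without WT replicate 1 and 2. Abcd2 (chromosome 15, 91145871 to 91192007) was at 42.8 and 48.3 CPM in WT and at 28.1 and 28.0 CPM in JMJD1C-LKO, 0.616 of the WT level (log2 fold change -0.70, SE 0.09, edgeR adjusted p = 6.46e-04). Abcd3, the more abundant transporter of the same family, was at 427 and 447 CPM in WT and 446 and 417 CPM in JMJD1C-LKO and did not pass (log2 fold change -0.02, SE 0.08).

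Acaa1a and Acaa1b encode 2 closely related peroxisomal thiolases and were called in opposite directions. Acaa1a (chromosome 9, 119341294 to 119350295) was at 223 and 228 CPM in WT and at 264 and 293 CPM in JMJD1C-LKO (log2 fold change 0.31, SE 0.08, edgeR adjusted p = 0.0239). Acaa1b (chromosome 9, 119148043 to 119157093) was at 1543 and 1485 CPM in WT and at 1134 and 1329 CPM in JMJD1C-LKO (log2 fold change -0.30, SE 0.10, edgeR adjusted p = 0.0461). Each call is uncertain, because the authors' counting could split reads between them: of all stretches of 50 bases in their transcripts, 34.1% of those of Acaa1a and 36.0% of those of Acaa1b occur in the other. With the counts of both added, a step chosen after seeing the data, the pair was at 1766 and 1713 CPM in WT and 1398 and 1623 CPM in JMJD1C-LKO and did not pass (log2 fold change -0.20, SE 0.10, edgeR adjusted p = 0.142). Without WT replicate 1 or 2 the adjusted p by edgeR was 0.195 and 0.162 for Acaa1a and 0.245 and 0.177 for Acaa1b, and among the JMJD1C-LKO libraries Acaa1b lost its call without replicate 1 (0.101) and Acaa1a without replicate 2 (0.0636). An exon of Acaa1b also overlaps Dlec1 on the other strand by 204 bp.

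The other 5 enzymes of the peroxisome and its carrier proteins did not pass. Scp2, which carries sterols and holds a thiolase for branched chains, was the most abundant of the 34 genes at 2596 and 2700 CPM in WT and 3102 and 2615 CPM in JMJD1C-LKO, with overlapping libraries. Decr2, the peroxisomal dienoyl-CoA reductase, was at 232 and 234 CPM against 269 and 272 CPM, so its libraries did not overlap, and it lay just outside the threshold (log2 fold change 0.22, SE 0.08, edgeR adjusted p = 0.0612). Acox2, an oxidase of branched chains and bile acid intermediates, Hsd17b4, the second bifunctional enzyme, and Crot had log2 fold changes of 0.07, 0.06 and 0.03.

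Of the 8 genes that activate fatty acids or serve several compartments 2 were higher and 0 lower. Slc27a5, the bile acid and very long-chain acyl-CoA synthetase (chromosome 7, 12988346 to 12998192), was at 765 and 784 CPM in WT and at 1078 and 1073 CPM in JMJD1C-LKO (log2 fold change 0.47, SE 0.08, edgeR adjusted p = 0.00279). Eci2, an enoyl-CoA isomerase (chromosome 13, 34977748 to 34994144), was at 238 and 253 CPM in WT and 284 and 304 CPM in JMJD1C-LKO (log2 fold change 0.26, SE 0.08, edgeR adjusted p = 0.0411). Both were higher in each JMJD1C-LKO library than in any WT library. Without WT replicate 1 or 2 neither passed, with edgeR adjusted p = 0.0558 and 0.0513 for Slc27a5 and 0.313 and 0.166 for Eci2, which also missed without JMJD1C-LKO replicate 2 (0.0957). With the most abundant transcript alone the log2 fold change of Eci2 was 0.16 and did not pass (edgeR adjusted p = 0.167). Acsl1, the main long-chain acyl-CoA synthetase of liver, was at 1009 and 984 CPM in WT and 920 and 807 CPM in JMJD1C-LKO (log2 fold change -0.21, SE 0.09, edgeR adjusted p = 0.118), and Aldh3a2, which oxidises fatty aldehydes, had a log2 fold change of -0.21 (SE 0.08, edgeR adjusted p = 0.0886). Acsl4, Acsl5, Crat and Slc27a2 lay between -0.06 and 0.10 and did not pass. Acsl1 passed without JMJD1C-LKO replicate 1 (-0.31, edgeR adjusted p = 0.0146) and Aldh3a2 without JMJD1C-LKO replicate 2 (-0.29, edgeR adjusted p = 0.0301).

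**Figure D2:**
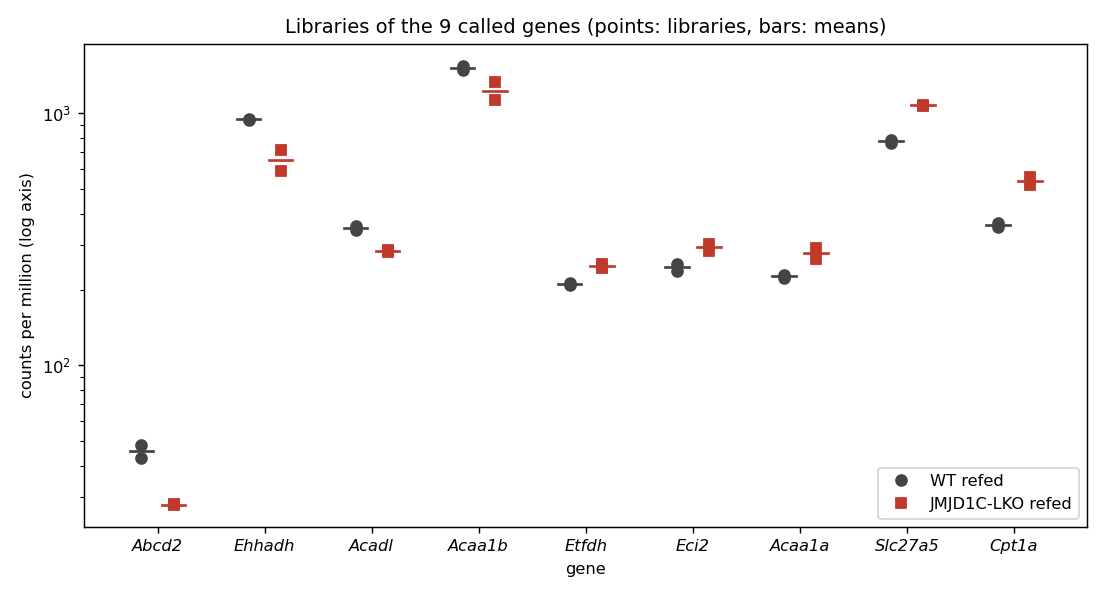
CPM (y axis, log scale) of the 9 genes with an adjusted p under 0.05 (x axis), with circles for the 2 WT refed libraries, squares for the 2 JMJD1C-LKO refed libraries and bars for the means. In each of the 9 genes the libraries of the 2 genotypes are separate, from 28.0 CPM for Abcd2 to 1543 CPM for Acaa1b.

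The mitochondrial and peroxisomal groups were then set side by side. The summed level of the 16 mitochondrial genes was 6008 and 5983 CPM in WT and 6011 and 5893 CPM in JMJD1C-LKO, and that of the 10 peroxisomal genes was 7146 and 7198 CPM in WT and 7017 and 6821 CPM in JMJD1C-LKO. Between genotypes the mitochondrial sums overlapped. The peroxisomal sums did not, being lower in both JMJD1C-LKO libraries, and 67.5% of all single genes tested were separated between genotypes. Among abundant peroxisomal genes the mean CPM in WT and JMJD1C-LKO was 1514 and 1231 for Acaa1b and 946 and 654 for Ehhadh. For Scp2, which went the other way, it was 2648 and 2859. These sums were not tested, since an exact permutation test of 2 libraries against 2 cannot go below p = 0.333, and they are not scaled by length, so the sum of one group is not to be read against that of the other. The median log2 fold change was -0.04 for the mitochondrial and 0.05 for the peroxisomal genes against 0.01 over all genes tested, and the peroxisomal median took the other sign (-0.05) without JMJD1C-LKO replicate 1. Peroxisomal changes ranged more widely downward, from -0.70 to 0.31, than mitochondrial ones, from -0.30 to 0.58, as a description of these genes.

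Levels of different genes can be compared only per length of transcript. On the scale of CPM per kilobase, averaged over the WT libraries, Scp2 (994), Acaa1b (907) and Slc27a2 (793) were the highest of the 34, followed by Acaa2 (686) and Etfb (608). Cpt1a, the entry step, was 27th at 83.9, and the lowest were Crat (15.6), Abcd2 (7.94) and Acsl4 (6.15). The median level per kilobase was 174 and 179 for the mitochondrial genes in the WT libraries and 156 and 153 in JMJD1C-LKO, and 134 and 137 against 147 and 157 for the peroxisomal genes. These medians do not weigh genes by abundance as the sums do. Each follows the few genes in the middle of its group, so it is not the typical change of a gene. Over single genes the median log2 fold change was -0.04 for the mitochondrial and 0.05 for the peroxisomal genes.

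Genes next to the pathway gave its setting in the same libraries. Of 32 other oxidation enzymes 31 were tested, and 13 were higher and 2 lower, 41.9% and 6.45% beside the background above, with a median log2 fold change of 0.20. Among those with the smallest p were Hsd17b10, a mitochondrial dehydrogenase of short and branched chains (log2 fold change 0.62), Acad10 (0.70), Acox3, a peroxisomal oxidase (0.50), and Ivd, which acts in leucine breakdown (0.41), all higher. Hacl1, which splits branched acyl-CoA, and Ech1, a dienoyl-CoA isomerase, were the 2 lower ones, named here after their values were seen. Without WT replicate 1 or without WT replicate 2 the counts for this list were 5 higher and 0 lower. Ivd (edgeR adjusted p = 0.0581 and 0.115), Hacl1 (0.156 and 0.268) and Ech1 (0.134 and 0.105) missed in both cases and Acox3 without WT replicate 2 (0.0534).

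Of 6 ketone body genes 0 were higher and 2 lower (33.3%), beside 14.6% of all tested genes called higher and 13.4% called lower. The 2 lower ones were Slc16a1, a monocarboxylate transporter (log2 fold change -0.69), and Bdh1, the hydroxybutyrate dehydrogenase (-0.24). Of 17 regulators 5 were higher (29.4%) and 2 lower (11.8%). The coactivator Ppargc1a was at 8.82 and 8.91 CPM in WT and 25.5 and 33.1 CPM in JMJD1C-LKO (log2 fold change 1.72, SE 0.13, edgeR adjusted p = 5.40e-05), and Ppargc1b, Foxo1 and Creb3l3 were higher by 0.79, 0.50 and 0.35 on the log2 scale. Acaca, which makes malonyl-CoA, was at 65.5 and 75.4 CPM in WT and fell to 49.0 and 46.2 CPM (log2 fold change -0.57, SE 0.09, edgeR adjusted p = 0.00211). Acacb, which also makes malonyl-CoA, was at 22.6 and 31.8 CPM in WT and 22.9 and 35.1 CPM in JMJD1C-LKO. It was named here after its values were seen and did not pass (log2 fold change 0.09, SE 0.20, edgeR adjusted p = 0.764). Nrf1 fell by 0.52 on the log2 scale. Ppara, named here after its values were seen, was at 304 and 305 CPM in WT and at 328 and 384 CPM in JMJD1C-LKO and did not pass (log2 fold change 0.23, SE 0.09, edgeR adjusted p = 0.0979). With a WT replicate left out the regulators called were 2 higher and 1 lower (without replicate 1) or 2 higher and 0 lower (without replicate 2, when Acaca had an edgeR adjusted p of 0.050), and of the ketone body genes 0 and 1. Foxo1, Creb3l3, Nrf1 and Bdh1 did not pass without WT replicate 1 (edgeR adjusted p = 0.0584, 0.0851, 0.0834 and 0.194) or without WT replicate 2 (0.102, 0.144, 0.150 and 0.265).

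Of 19 peroxisome biogenesis genes 3 were higher (Pex11g, Pex16 and Pex19) and 2 lower (Pex13 and Acbd5), close to the background shares. None of the 5 passed by edgeR without WT replicate 1 or without WT replicate 2. Of 12 genes that follow the feeding state 6 were higher and 3 lower. By smallest p the called feeding state genes were led by Fgf21, a fasting hormone that is a Ppara target (0.183 of the WT level), Scd1, a lipogenic desaturase (3.99-fold higher), Igfbp1 (108-fold) and Pck1 (2.51-fold), both repressed by insulin, Pdk4, which spares glucose (8.18-fold), and Angptl4, an inhibitor of lipoprotein lipase (1.88-fold). Among the genes named here Fgf21 alone was lower, while Igfbp1, Pck1, Pdk4 and Angptl4 were higher. Why Fgf21 differed from them was not tested. Without a WT replicate 5 were higher and 2 or 1 lower, and those named here still passed.

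ATAC-seq placed a summit within 1000 bp of a transcript start for few of the 34 genes. In WT fasted livers 8 and 7 genes had one, against a background of 20.2% and 9.28% of the tested genes that have a RefSeq start. In WT refed livers 7 and 7 genes had one, against 16.7% and 10.5%. In JMJD1C-LKO refed livers 3 and 0 genes had one, against 6.66% and 1.31%. As shares of the 34 genes these were 23.5%, 20.6%, 20.6%, 20.6%, 8.82% and 0%, above the background in each liver but JMJD1C-LKO replicate 2, and the drop in JMJD1C-LKO went with that of all genes. In both livers of a group a summit lay at 4 genes after fasting (background 7.36%) and 6 after refeeding (8.07%) in WT, and at 0 in JMJD1C-LKO (0.564%). Hadha and Hadhb start 273 bp apart on opposite strands and share the same summits, so each pair of calls there is 1 site. The differences from the background were not tested.

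Of the 11 genes with a summit in any liver 8 were mitochondrial, 1 was peroxisomal and 2 belonged to the group kept apart. The mitochondrial counts here and below hold both Hadha and Hadhb, which share 1 site. The difference between the groups was not tested. Of the 16 mitochondrial genes 6 and 6 had a summit in fasted WT livers, 6 and 5 in refed WT livers and 2 and 0 in livers labelled JMJD1C-LKO, whereas of the 10 peroxisomal genes 0 and 1, 0 and 1, and 0 and 0 did. The single peroxisomal gene was Acaa1a, in WT fasted replicate 2 (138 bp upstream of the start) and WT refed replicate 2 (175 bp upstream). Acadm, Hadha, Hadhb and Etfdh had a summit in all 4 WT livers, Etfa and Acsl1 in both WT refed and 1 WT fasted liver, and Acaa2 in replicate 1 of both WT states. Acads, Etfb and Eci2 had one in a single WT fasted liver. In JMJD1C-LKO replicate 1 the 3 genes were Acadm, Etfdh and Acsl1.

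In the Acadm sequence above, summits lay at 2 bp downstream and 16, 1 and 21 bp upstream of the start in the 4 WT livers and 19 bp upstream in JMJD1C-LKO replicate 1, so 5 livers placed it within 23 bp of each other. Its rank by score among all summits of the liver was 2797 of 5220 and 785 of 7632 in fasted WT, 363 of 5027 and 428 of 3119 in refed WT, and 313 of 1450 in replicate 1 of JMJD1C-LKO. At Etfdh the WT fasted summits lay 30 and 20 bp upstream and the WT refed ones 138 and 157 bp upstream, which are the separate capital stretches in its sequence. Summits are single positions without widths, and whether these mark the same peak was not tested. The ATAC-seq summits nearest to the Cpt1a and Ehhadh starts in any liver were 252663 and 221539 bp away.

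Promoter summits and transcript changes were set side by side. The 11 genes with an ATAC-seq summit in any liver had a median log2 fold change of -0.03 and included 3 of the 9 called genes (Etfdh, Acaa1a and Eci2), and the 23 without one had a median of 0.03 and included the other 6. The genes with the strongest changes, Cpt1a, Slc27a5, Abcd2 and Ehhadh, had none. By WT level per kilobase the 11 genes ranged from 74.7 to 686 with a median of 173, and the 23 from 6.15 to 994 with a median of 128, so the ranges overlapped.

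**Figure D3:**
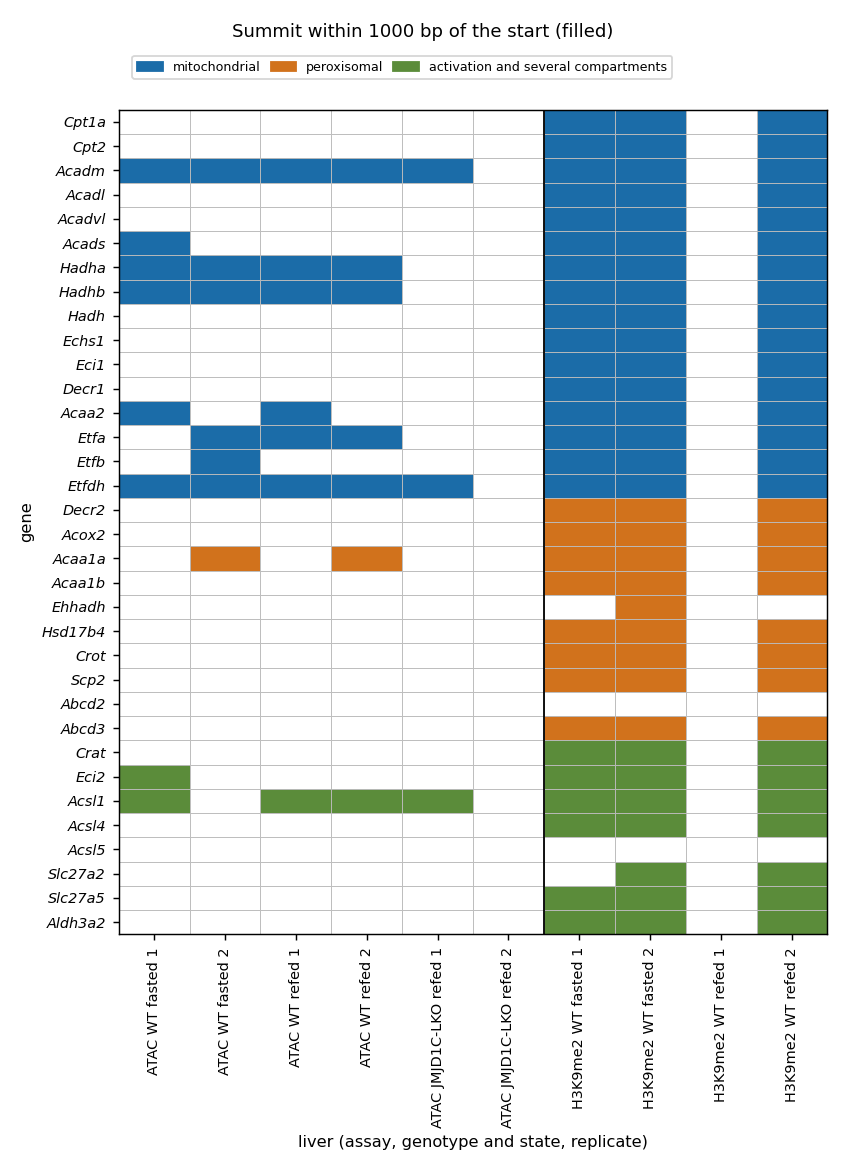
Presence (filled) or absence (white) of a summit within 1000 bp of a start for each of the 34 genes (rows, coloured by compartment) in each of the 10 livers (columns), with ATAC-seq left and H3K9me2 right of the black line. ATAC-seq cells are filled for 11 genes, 1 of them peroxisomal, and H3K9me2 cells for 32 genes except in WT refed replicate 1, which has 0.

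H3K9me2 summits lay at nearly all of these starts in the 3 livers with a full list. WT fasted livers had one at 30 and 32 of the 34 genes (background 51.6% and 74.1%), and WT refed livers at 0 and 31 (background 0.123% and 61.6%). In both WT fasted livers there was one at 30 genes (background 51.3%) and in both WT refed livers at 0 (background 0.0723%). The 0 in WT refed replicate 1 is that of the whole list, since only 17 of 13825 genes had a summit at a start there, and the 2 states could not be compared beyond replicate 2. Of the 34 genes 31 had a WT level of 100 CPM or more, and among all 1367 such genes the shares were 86.4%, 95.2%, 0.293% and 91.5%, close to the 88.2%, 94.1%, 0% and 91.2% of the 34. High shares of H3K9me2 summits were thus found at abundant genes in general.

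**Figure D4:**
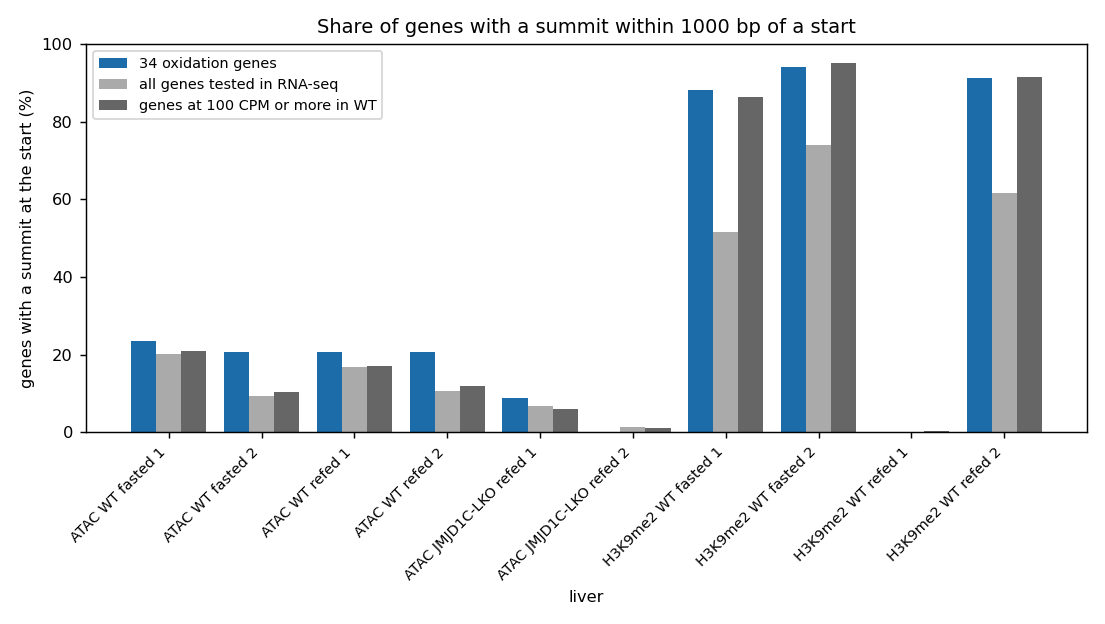
Share of genes with a summit within 1000 bp of a start (y axis, percent, from 0) in each of the 10 livers (x axis), for the 34 oxidation genes, all genes tested by RNA-seq and genes at 100 CPM or more in WT. For H3K9me2 the 34 genes match the abundant genes (91.2% and 91.5% in WT refed replicate 2) and lie above all tested genes (61.6%).

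All 16 mitochondrial genes carried an H3K9me2 summit in the 3 livers, and 8, 9 and 8 of the 10 peroxisomal genes did. The exceptions included the 2 peroxisomal genes whose transcripts fell most in JMJD1C-LKO. Abcd2 had no summit at its start in any liver, the nearest being 1607 bp downstream in WT fasted replicate 2, and Ehhadh had one only in WT fasted replicate 2, at 449 bp downstream, with a score of 9.46 that ranked 11085 of 13456. By level per kilobase Abcd2 was 33rd and Ehhadh 7th of the 34. Acadl and Acaa1b were also lower in JMJD1C-LKO and had a summit in each of the 3 livers. H3K9me2 was measured in WT livers only, and a link between these summits and the transcript changes was not tested. Acsl5 had no summit within 1000 bp, but one lay 1044, 1067 and 1127 bp upstream in the 3 livers, just outside the window. Slc27a2 lacked one in WT fasted replicate 1.

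The marks also lay on different sides of the start. ATAC-seq summits at the 34 genes had a median position of 136.5 and 84 bp upstream in WT fasted and 138 and 140 bp upstream in WT refed livers. H3K9me2 summits lay a median of 343, 311 and 319 bp downstream, and 28 of 30, 30 of 32 and 29 of 31 genes had theirs downstream. Over genes at 100 CPM or more the H3K9me2 medians were 322, 295 and 318 bp downstream, so the position was that of abundant genes in general. Cpt1a had its summit at 370, 344 and 340 bp downstream, with rank 295 of 7690, 350 of 13456 and 261 of 9929, among the strongest of each list. Acadl, which fell in JMJD1C-LKO while Cpt1a rose, had summits 209, 215 and 185 bp downstream with ranks 855, 309 and 2029.

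**Figure D5:**
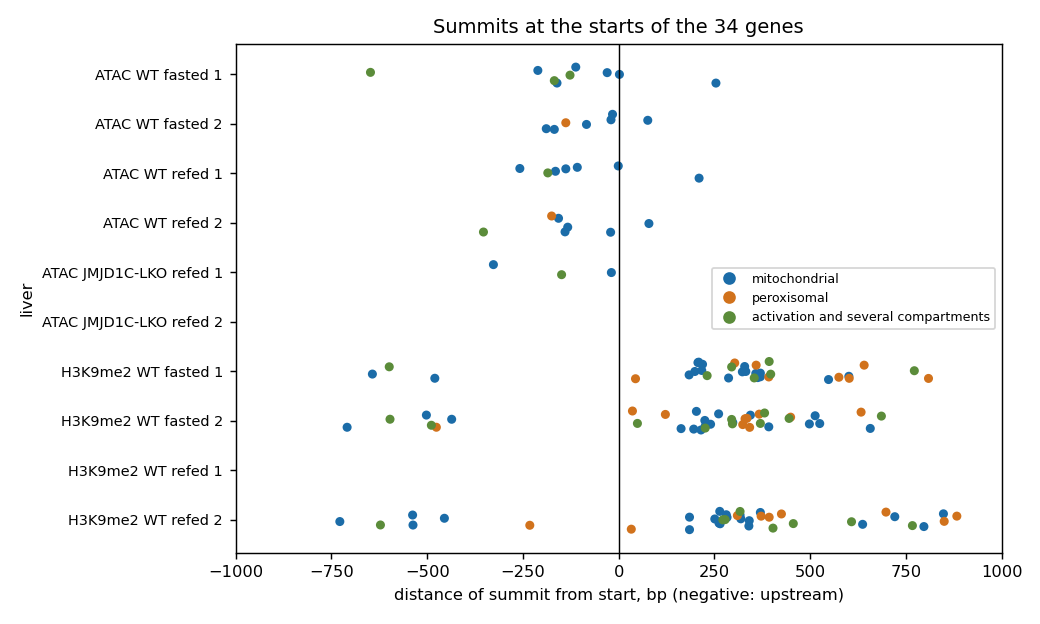
Distance of each summit from the transcript start (x axis, bp, negative upstream, shown to 1000 bp) at the 34 genes in each of the 10 livers (y axis; points are spread vertically for visibility and coloured by compartment). ATAC-seq points gather upstream of 0 (medians of 84 to 140 bp upstream in WT) and H3K9me2 points downstream (medians of 311 to 343 bp).

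RefSeq promoters, 250 bases before to 50 after a start, were found for 28 of the 34 genes, with 31 promoters between them. The E-box CACGTG, which reads the same on both strands and is the site USF proteins bind, lay in 1 of the 31, that of Aldh3a2 with its first base 30 bases before the start, and in 7.15% of all 32851 promoters. The direct repeat of AGGTCA with 1 free base (N) between its copies, the idealised site of Ppara with its partner receptor, was searched on both strands and was found in 0 of the 31, exactly or with 1 mismatch, and in 0.0396% and 0.554% of all promoters. These letters are absent from these windows, which says nothing of other positions. Median GC content was 61.0% in the mitochondrial and 59.0% in the peroxisomal promoters against 52.7% in all, and the observed over expected ratio of CpG was 0.70, 0.50 and 0.38.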

How the data were processed

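RNA-seq was measured in 4 libraries, ATAC-seq in 6 livers and H3K9me2 in 4 livers with 4 inputs, whose files were not used here. The authors deposited estimated counts per transcript, unscaled, of which 65.7% to 66.0% were fractional. HISAT2 and Partek are named in the submitters' processing notes, without their roles. A further table of the authors' own comparison (fold changes and p-values) was not used. For ATAC-seq (BWA) and ChIP-seq (Bowtie2, input as control), the authors called peaks per liver with MACS2 2.1.1 at a q of 0.05 and deposited summits with the −log10 of the q-value (mm10). Read depth is unknown from these, so scores were ranked within a liver.

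Counts were summed per gene, rounded, filtered by filterByExpr and tested with edgeR 4.0.16 (TMM, quasi-likelihood F test, no block, Benjamini-Hochberg over 14151 genes, threshold 0.05). The script was tested on simulated data. CPM are TMM-normalized. p-values measure the spread between pools, which may be technical. No intervals were computed for the summit counts, since summit lists hold no reads. A summit counted within 1000 bp of a RefSeq NM or NR start, and the background for summits was 13825 tested genes with such a start. The alternatives were DESeq2 1.42.0, RLE factors, no filter, a replicate block, the most abundant transcript, single libraries left out, a threshold of 0.01, other compartments, windows of 500 and 2500 bp, a score of at least 5, equal numbers of summits and either liver. Groups came from the labels. All 34 genes were named, and from other lists at most 6 called genes by smallest p, some of which are not reported here. Members and lists were chosen with earlier results of these data known. Of the other marker lists, cholangiocyte and stellate cell markers had 0 of 5 called each, T and B cell and erythroid markers 1 of 5 each, higher, and of pancreatic acinar markers 1 of 5 was tested and not called. A list of 5 sex-linked genes, added after seeing the data, had 1 lower.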

Additional observations from a re-analysis of the deposited data

How the results depend on the processing

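In the count of called genes, 5 were higher and 4 lower. With a threshold of 0.01 both counts were 2, with the most abundant transcript of each gene 2 were higher and 3 lower (1263 and 1063 over all genes, against 2066 and 1892), and with 1 library left out they ranged from 1 to 4 higher and from 1 to 6 lower. Both lowest counts came without WT replicate 1 (1 higher, 1 lower) and without WT replicate 2 (1 higher, 1 lower), when over all genes the calls fell to 789 higher and 476 lower, and to 660 and 408. Each such test leaves 1 library in a genotype, assumed to vary like the others, but without JMJD1C-LKO replicate 1 the calls over all genes were 2590 higher and 2590 lower, and the cause of the drop was not tested. Cpt1a and Abcd2 passed in each of these alternatives. Beside the stricter threshold, Etfdh lost its call in 6 alternatives and Acaa1b, Acaa1a and Eci2 in 4 each. With the counts of Acaa1a and Acaa1b added, the pair's log2 fold change of -0.20 had the sign of Acaa1b. With DESeq2 and with RLE factors all 34 genes stayed on the same side. The median log2 fold change ranged from -0.0594 to -0.0271 for mitochondrial and from -0.0493 to 0.0511 for peroxisomal genes with 1 library left out, and leaving out Acaa1a and Acaa1b, which was chosen after seeing the data, gave 0.05 for the peroxisomal genes, as before.

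With a replicate block, 4 genes were higher and 4 lower, Etfdh lost its call (edgeR adjusted p = 0.0559) and no other call changed. Over genes, the difference between replicates 1 and 2 in WT had a correlation of -0.00461 with that in JMJD1C-LKO. No shared replicate effect was thus seen, which cannot show whether the libraries were made in pairs.

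Genes with an ATAC-seq summit numbered 0 in WT fasted and 3 in WT refed with the 825 strongest summits of each liver, and 11 in WT fasted and 3 in JMJD1C-LKO with either liver. With 1 liver left out the numbers were 7 to 8 in WT fasted, 7 in WT refed and 0 to 3 in JMJD1C-LKO. For H3K9me2 the 1297 strongest summits gave 9 genes in WT fasted (30 to 32 with 1 liver left out), and either liver gave 31 in WT refed, where leaving out 1 liver gave 0 to 31. The causes were not tested.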
